A study of Mus musculus with 15 samples.

Results

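Cd5l encodes CD5 antigen-like, a protein that is also called AIM, for apoptosis inhibitor of macrophages. The transcript is 1 of 23510 genes in an expression table of 15 libraries from mouse testis, and it was followed through all of them. Cd5l was chosen by its own level, because it was low in all 3 M3 libraries and not in the M5 or MNC libraries. Its differences between M3 and the other groups are therefore given as a description. Calls of Cd5l from the fits over all genes are named once, and no conclusion is drawn from them. The gene was listed above 0 in every M3 library, so near absent is a closer description than absent.

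CD5L is secreted by resident tissue macrophages, and it is best known from the liver, spleen, thymus and peritoneal cavity. It consists of scavenger receptor cysteine-rich domains, circulates bound to immunoglobulin M, and enters fat cells through the receptor CD36, where it inhibits fatty acid synthase and favours the breakdown of lipid droplets. Its gene is a known target of the liver X receptors, which sense oxysterols. The testis holds resident macrophages in the interstitium and around the seminiferous tubules.

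Testes of ICR mice, an outbred stock, were injected at 5 weeks of age with lentivirus, and testes were collected 10 days later. The M1, M3 and M5 groups received a mixture of 3 short hairpin RNAs against the muscarinic acetylcholine receptor of that name, and MNC received the vector control. In the study's methods the control lentivirus carried a control short hairpin RNA. Con was labelled as a control, and its handling was not described further. Each group had 3 libraries of poly(A) RNA from whole testis. A lentivirus injected into a testis can reach cells of many types, and which cells carried it was not measured in these libraries. The source and tissue of the samples were given as testis and their extraction text as sperm, and transcripts of somatic testis cells were present in all 15 libraries beside those of germ cells. Cyp17a1 of Leydig cells was at 53.7 to 342 FPKM, Sox9 of Sertoli cells at 3.14 to 6.30 FPKM, the smooth muscle actin Acta2 at 13.8 to 26.2 FPKM and the sperm protamine Prm1 at 2951 to 9026 FPKM. Nothing in the labels says that the 3 libraries of a group came from separate animals, so the p-values measure the spread between libraries, which may be partly technical.

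Values are FPKM, sequenced fragments of a gene scaled by its length and by how much was mapped in that library. Summed FPKM was 470243 to 513817 per library and 20619 to 20840 genes per library were above 0, while the absolute depth is unknown. The targeted transcript Chrm3, which encodes the M3 receptor, was at 0.08, 0.04 and 0.11 FPKM in the M3 libraries and at 0.01 to 0.09 FPKM in the other 12, so it gave no check of the M3 label. M3 replicate 3 stood apart within its group. Across the genes tested its correlation was 0.977 and 0.979 with the other M3 libraries, which had 0.987 with each other, and it reached 0.984 with M5 replicate 2. Since they run across genes and not across replicates, they only describe the libraries.

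Cd5l (Entrez gene 11801) lies on the forward strand of mouse chromosome 3, at chr3:87357881-87371074 in GRCm38.p6. The annotation gives it 1 transcript of 2036 bases in 6 exons. The 250 bases upstream of the RefSeq start, chr3:87357631-87357880, are shown because members of the liver X receptor pathway are compared further on. They are given on the forward strand as RefSeq has them, with no part in capitals.
Cd5l upstream: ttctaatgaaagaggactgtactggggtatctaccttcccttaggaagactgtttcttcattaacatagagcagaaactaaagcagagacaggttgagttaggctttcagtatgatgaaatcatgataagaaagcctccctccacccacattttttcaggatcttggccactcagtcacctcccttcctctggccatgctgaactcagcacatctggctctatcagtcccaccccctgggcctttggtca
The direct repeat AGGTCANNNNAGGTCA, which liver X receptors can bind, was searched on both strands, was in 5 of the 32851 upstream windows of RefSeq genes (0.0152%) and was not in that of Cd5l. The absence of a match says only that these letters are not in this window.

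In the M3 libraries Cd5l was at 0.12, 0.06 and 0.20 FPKM. In MNC it was at 4.32, 4.88 and 3.96 FPKM and in M5 at 3.56, 4.89 and 4.87 FPKM. In M1 it was at 2.55, 4.16 and 4.22 FPKM. In Con it was at 2.41, 0.63 and 3.67 FPKM, so that Con replicate 2 was the lowest of the 12 libraries outside M3. No M3 library overlapped any other library. Among the groups that the choice had used, the highest M3 value of 0.20 FPKM and the 3.56 FPKM of M5 replicate 1 were the values on either side. The 0.63 FPKM of Con replicate 2, in a group that it had not used, lay between them. For comparison with these low levels, the smallest FPKM above 0 among 187 genes with a single transcript within 5% of the length of Cd5l was 0.01 to 0.02 per library.

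Group means were 0.127 ± 0.0702 FPKM in M3, 2.24 ± 1.53 in Con, 3.64 ± 0.947 in M1, 4.39 ± 0.464 in MNC and 4.44 ± 0.762 in M5 (SD, n = 3 each). In this order only the neighbours M3 and Con did not overlap, while Con and M1, M1 and MNC, and MNC and M5 did. The mean of MNC was 34.6 times that of M3, the mean of M5 35.1 times, the mean of M1 28.8 times and the mean of Con 17.7 times. Taking the nearest libraries, the lowest MNC value was 19.8 times the highest M3 value, and the lowest Con value 3.15 times.

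The log2(FPKM + 1) scale compresses differences between low levels. On it, the difference of Cd5l was -2.26 for M3 minus MNC (pooled SD 0.11) and -2.26 for M3 minus M5 (pooled SD 0.16). It was -2.02 for M3 minus M1 (pooled SD 0.23) and -1.40 for M3 minus Con (pooled SD 0.55). Without M3 replicate 3 these values were -2.30, -2.31, -2.07 and -1.44. Without Con replicate 2 the difference from Con was -1.83. The 4 differences share the same M3 libraries. Cd5l was the 1 gene of 14514 called between M3 and MNC by limma (0.00689% of the genes tested) and 1 of the 2 called between M3 and M5 (0.0138%), which restates the choice of the gene. The same fits called it against Con (limma adjusted p = 0.0395), as they did 22.1% of all genes, and not against M1 (limma adjusted p = 0.0801). Both use the M3 values by which the gene was chosen.

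**Figure D1:**
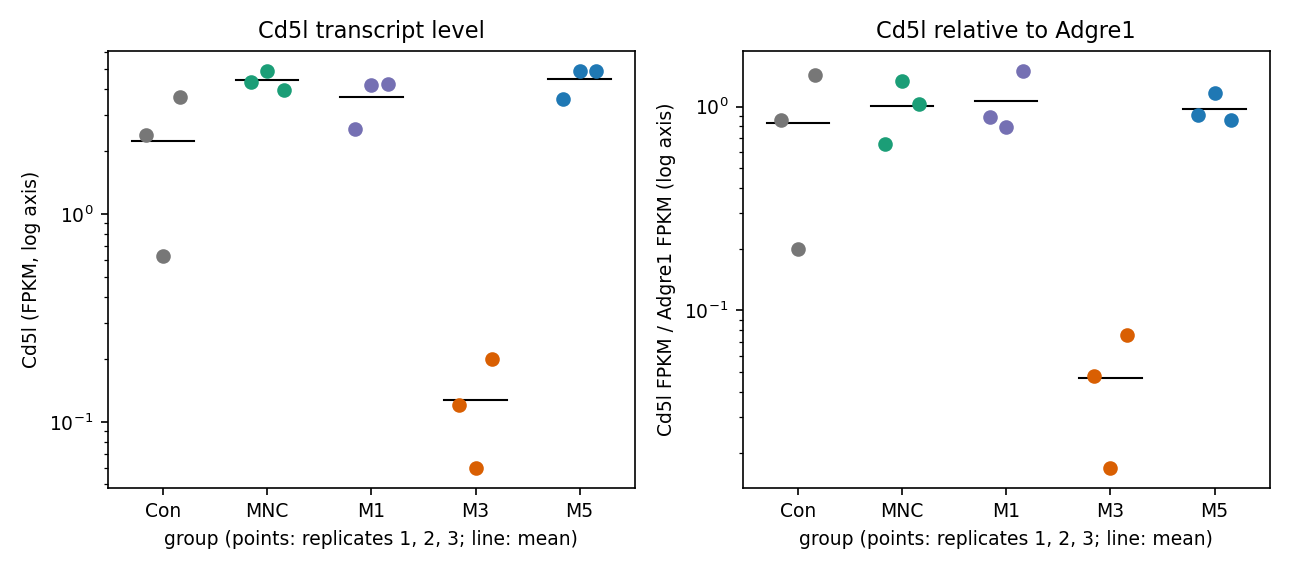
Left, Cd5l in FPKM on a log axis for each library of the 5 groups (points in the order of replicates 1, 2 and 3; the line is the mean of 3); right, the same divided by the FPKM of the macrophage gene Adgre1. The 3 M3 libraries sit at 0.06 to 0.20 FPKM, below Con replicate 2 at 0.63 FPKM and the other 11 libraries.

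Cd5l between M1 and Con was the comparison that the choice of the gene had not used. The log2 difference was 0.63 higher in M1 (SE 0.386), with a limma adjusted p of 0.233, and Cd5l did not pass the threshold of 0.05, while 34.2% of all genes tested did. The median over all genes was -0.115. The 3 Con values ranged over 2.41, 0.63 and 3.67 FPKM and overlapped those of M1, and the difference was 0.20 without Con replicate 2.

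Macrophage transcripts themselves were present in M3 testes. Adgre1, which encodes the macrophage surface protein F4/80, was at 2.50, 3.56 and 2.64 FPKM in M3, 6.62, 3.65 and 3.85 in MNC and 2.80, 3.14 and 2.58 in Con. The M3 and Con libraries overlapped for Adgre1, while each MNC library lay above all M3 libraries. Csf1r, the receptor of the main macrophage growth factor, was at 3.02, 3.76 and 3.47 FPKM in M3 and at 9.05, 4.26 and 4.68 in MNC. Both genes were named beside the rule as measures of macrophage RNA. Cd5l per unit of Adgre1 was 0.0480, 0.0169 and 0.0758 in M3, against 0.653, 1.34 and 1.03 in MNC, 0.885, 0.792 and 1.50 in M1, and 0.910, 1.16 and 0.862 in M5. In Con the ratio was 0.861, 0.201 and 1.42. The M3 ratios were below those of all other libraries, and that of Con replicate 2 was again the lowest outside M3.

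Of 15 listed macrophage genes 14 were tested, and the median difference was -0.52 for M3 minus MNC (all genes -0.040), -0.79 for M3 minus M5 (all genes -0.057), -0.19 for M3 minus M1 (all genes -0.023) and 0.10 for M3 minus Con (all genes -0.129). None was called in the first 3 comparisons. At an unadjusted p under 0.05, 6 were lower in M3 than in MNC, 11 lower than in M5 and 0 lower or higher than in M1. The background at this unadjusted threshold was 9.43% of all genes for MNC, 14.3% for M5 and 4.63% for M1. C1qa and C1qb, subunits of complement C1q, were at 13.5, 17.1 and 16.5 FPKM and at 12.8, 17.8 and 15.9 FPKM in M3, and at 44.0, 20.1 and 22.5 FPKM and 38.3, 20.3 and 20.2 FPKM in MNC. Lyz2, a lysozyme of macrophages and neutrophils, was at 30.5, 37.5 and 35.3 FPKM in M3 and 43.9, 30.5 and 30.6 in MNC. Aif1 was at 203 to 358 FPKM over the 15 libraries and would have set the sum of the list by itself. The medians and counts above include it. Without it the summed level was 94.1 to 128 FPKM in M3, 131 to 243 in MNC, 164 to 422 in M5, 92.0 to 200 in M1 and 94.8 to 121 in Con. In whole testis, fewer macrophages and less RNA per macrophage cannot be told apart. The part of macrophage RNA in the level of Cd5l was not tested, since the ratio to Adgre1 is built on the Cd5l values by which the gene was chosen.

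Genes that accompany Cd5l in resident macrophages of the liver and spleen were mostly low in all groups. Of 15 listed genes 7 were tested and none was called against MNC, M5 or M1. Clec4f and Clec1b, markers of liver Kupffer cells, were at 0 to 0.03 FPKM and 0 to 0.12 FPKM over the 15 libraries, and Spic, a transcription factor of splenic macrophages, at 0.03 to 0.29 FPKM. Timd4 was at 0.61, 0.91 and 0.84 FPKM in M3 and 1.15, 0.72 and 0.87 in MNC. Vsig4, below the filter, went the other way, at 1.16, 0.66 and 0.86 FPKM in M3 and 0.36, 0.47 and 0.30 in MNC. In M1 it was at 0.53, 0.50 and 0.19 FPKM, while M5 (1.59, 0.63 and 1.27) and Con (0.37, 0.80 and 0.91) overlapped M3. Timd4 and Vsig4 were named after their values were seen. Hmox1, which breaks down haem, was at 3.63, 6.20 and 4.29 FPKM in M3 and 7.40, 6.63 and 5.45 in MNC. Vcam1, an adhesion molecule, was at 18.1, 55.9 and 54.7 FPKM in M3, and these values spanned those of MNC at 53.3, 37.8 and 33.0. The median of the list was -0.11 for M3 minus MNC, -0.59 for M5, 0.03 for M1 and -0.25 for Con.

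The liver X receptors were measured in every library. Nr1h3, which encodes liver X receptor alpha, was at 4.62, 5.40 and 4.14 FPKM in M3 and at 5.65, 4.23 and 5.31 in MNC, and its log2 difference was -0.08 (SE 0.130, limma adjusted p = 0.813). Nr1h2, which encodes the beta form, was at 15.4 to 18.0 FPKM in M3 and 17.2 to 20.2 in MNC. Of 17 genes listed as liver X receptors, their partners and targets, 12 were tested, none was called against MNC, M5 or M1, and the median difference was -0.26 against MNC, -0.30 against M5, -0.07 against M1 and -0.43 against Con. Lpcat3, a phospholipid-remodelling enzyme, was at 72.0 to 77.6 FPKM in M3, and Apoe, an apolipoprotein, was at 53.4, 67.1 and 63.6 FPKM there against 75.7, 64.4 and 68.9 in MNC. Scd2, a fatty acid desaturase, was at 28.4, 49.9 and 32.9 FPKM in M3 and 52.2, 51.5 and 42.1 in MNC. The M3 and MNC libraries overlapped for Lpcat3, Apoe and Scd2.

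Relatives of Cd5l in the scavenger receptor cysteine-rich family were mostly low. Of 16 listed members 4 were tested. Lgals3bp, a secreted glycoprotein, was at 5.27, 8.92 and 5.36 FPKM in M3 against 25.6, 14.3 and 13.1 in MNC, and although the libraries did not overlap, its log2 difference of -1.28 (SE 0.290) was not called (limma adjusted p = 0.518). Scara5, a ferritin receptor, was at 10.9 to 13.0 FPKM in M3 and 13.1 to 14.3 in MNC. Msr1, a scavenger receptor of macrophages, was at 7.02, 7.59 and 9.59 FPKM in M3 and 7.24, 7.03 and 6.99 in MNC. Loxl2, a lysyl oxidase, was at 0.75, 1.20 and 1.30 FPKM in M3 and 2.25, 1.20 and 1.21 in MNC. The family medians were -0.24 against MNC, -0.43 against M5, -0.07 against M1 and -0.24 against Con.

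Genes on the route of CD5L into fat cells came next. Of 8 listed genes 6 were tested, with medians of -0.20 against MNC, 0.04 against M5, -0.16 against M1 and -0.35 against Con, and none was called against MNC, M5 or M1. Cd36 was at 2.67, 10.8 and 9.43 FPKM in M3 and 10.1, 9.98 and 14.97 in MNC, so that M3 replicate 1 alone was far below. Fasn, fatty acid synthase, was at 9.60, 9.87 and 7.97 FPKM in M3 and 11.6, 12.3 and 10.8 in MNC, and the lipases Lipe and Pnpla2 were at 93.7 to 104 FPKM and 90.4 to 111 FPKM in M3. The lipases were far above the fat cell gene Plin1, and which testis cells carried them was not measured. Plin1, which coats lipid droplets of fat cells, was at 0.33, 0.64 and 0.69 FPKM in M3 and at 0.82 to 2.54 FPKM in the other 12 libraries. Its log2 difference from MNC was -0.54 (SE 0.176, limma adjusted p = 0.518). Cidec, another lipid droplet protein, was below the filter, at 0.17, 0.17 and 0.12 FPKM in M3 and 0.21 to 2.22 FPKM elsewhere, and for both genes no M3 library overlapped any other. Cidea, of the same family as Cidec, was at 3.17, 5.41 and 3.87 FPKM in M3 and 2.33, 3.31 and 3.54 in MNC, so that the libraries overlapped, and its log2 difference was 0.33 (SE 0.194, limma adjusted p = 0.564). Cidec and Cidea were singled out after their values were seen.

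Carriers and other blood cells were compared in the same way. Jchain, which joins immunoglobulin M, was at 0.65, 2.31 and 5.38 FPKM in M3 and 2.52, 1.14 and 2.34 in MNC, and Fcmr, an immunoglobulin M receptor, was at 1.22 to 1.48 and 1.61 to 1.63 FPKM. The medians for M3 minus MNC were -0.01 for the 2 immunoglobulin M genes tested, -0.03 for 3 T cell genes, -0.14 for the B cell gene Pax5, -0.16 for 4 genes of monocytes and neutrophils, 0.17 for 5 genes of red blood cells and 0.00 for 11 genes of testis cells. Against M5 they were -0.74, -0.08, 0.08, -0.77, -1.83 and -0.23. The testis cell list joins several cell types. Its differences for M3 minus MNC ran from -0.91 to 0.35, and 6 of the 11 genes were lower in M3. The lowest was Cyp17a1, at 53.7, 159 and 140 FPKM in M3 and 206, 240 and 165 in MNC. Its M3 and MNC libraries did not overlap, and it was not called (SE 0.405, limma adjusted p = 0.518). S100a9, a calcium-binding protein of neutrophils, was at 2.99, 0.88 and 6.17 FPKM in M3, 0.08 to 0.20 in MNC and 0.52 to 5.22 in M5 (M3 minus MNC 1.75, SE 0.448, limma adjusted p = 0.518). S100a8 of the same list, below the filter and named after its values were seen, was at 2.86, 0.79 and 4.26 FPKM in M3. It was at 0.14, 0 and 0.26 FPKM in MNC, 0.77, 0.12 and 4.53 in M5 and 0 to 0.14 in Con. The neutrophil markers Ly6g and Mpo were at 0 to 0.15 FPKM and 0 to 0.06 FPKM in all libraries. Ly6g was at 0.15, 0 and 0.05 FPKM in M3 and at 0 in every MNC and Con library. The 5 liver genes listed because the liver is rich in CD5L, such as Alb for albumin, summed to 0.04 to 0.32 FPKM per library. The interferon response genes, of which 7 were tested, had a median of -0.64 against MNC, -0.83 against M5, -0.17 against M1 and 0.38 against Con. Irf7, a regulator of this response, was at 2.40, 3.40 and 2.39 FPKM in M3 and 12.1, 8.28 and 5.87 in MNC, and its log2 difference was -1.35 (SE 0.242, limma adjusted p = 0.518).

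Over all 75 listed genes tested other than Cd5l, limma called 0 between M3 and MNC, 0 between M3 and M5 and 0 between M3 and M1. Of all genes tested 0.00689%, 0.0138% and 0% were called. At an unadjusted p under 0.05 the counts of listed genes were 21 (28.0%), 38 (50.7%) and 3 (4.0%), beside 9.43%, 14.3% and 4.63% of all genes. Of the listed genes so counted, 19, 35 and 2 were lower in M3. In other settings the counts of listed genes ran from 9 of 75 to 27 of 108, from 18 to 43 of 75, and from 0 of 43 to 13 of 75. The number tested changed with the filter. The share of all genes at this unadjusted threshold was not counted in those settings, so these ranges have no background beside them. The median difference over the 75 genes was -0.24 against MNC, -0.53 against M5 and -0.12 against M1, beside -0.040, -0.057 and -0.023 over all genes tested. The difference of Cd5l in the same 3 comparisons was -2.26, -2.26 and -2.02. These comparisons share the M3 libraries. Cd5l was chosen by its values in M3, M5 and MNC, so its differences from MNC and M5 restate the choice and that from M1 partly does.

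**Figure D2:**
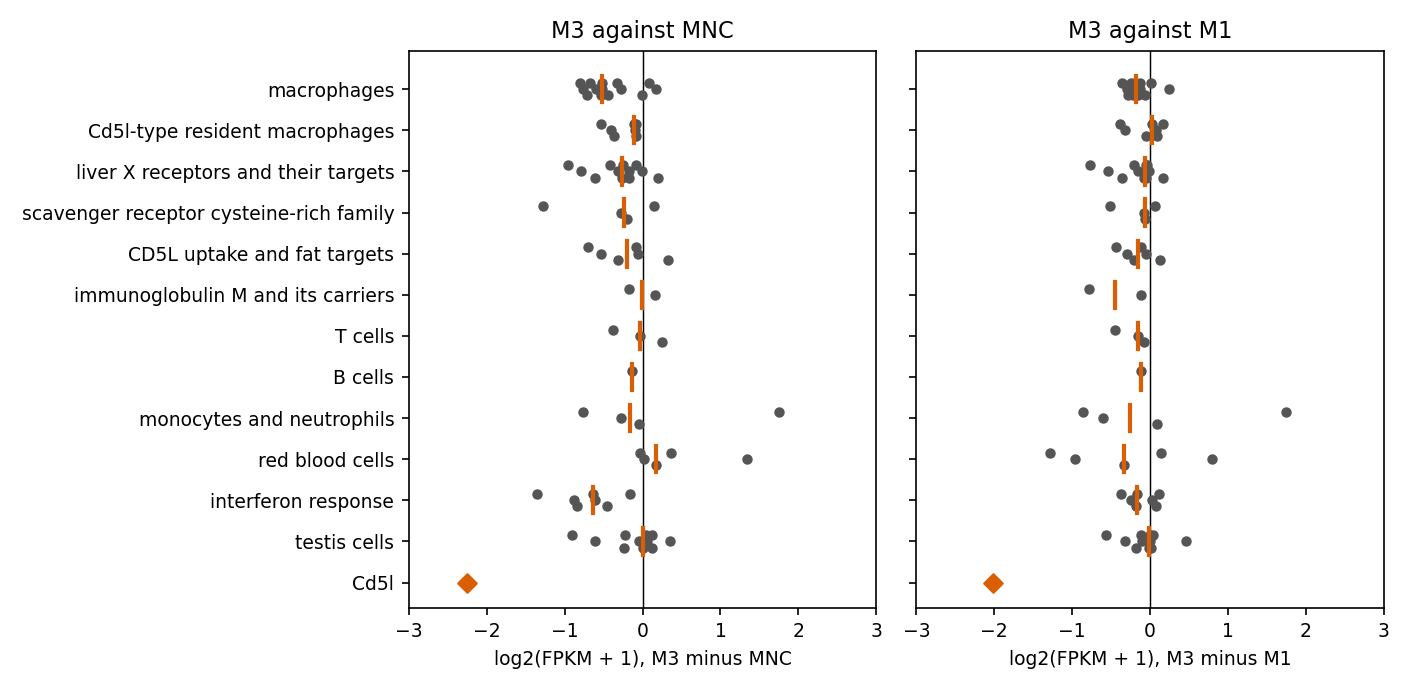
Each point is the difference in mean log2(FPKM + 1) of a listed gene between M3 and MNC (left) and between M3 and M1 (right), with 3 libraries per group; orange bars are list medians and the diamond is Cd5l. Cd5l lies at -2.26 and -2.02, while the macrophage list has medians of -0.52 and -0.19. The place of Cd5l restates its choice on the left and partly does so on the right.

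Between M3 and Con, 24 of the 75 listed genes were called (32%), 12 lower (16%) and 12 higher (16%) in M3, against 22.1% of all genes, 15.1% lower and 7.01% higher. Among those lower were Csf1r, Mrc1 and Mertk of the macrophage list, Folr2 and Hmox1, the sterol regulator Srebf1, Fasn, and the Leydig cell enzyme Cyp17a1. Among those higher were Aif1, Ctss, Msr1, the T cell genes Cd3g and Cd2, Ccr2, S100a9, Irf7 and Ifit3. Within the macrophage list, Aif1 was 0.57 and Ctss 0.68 higher in M3, while Adgre1 differed by 0.01 and Csf1r by -0.45. Aif1 was by far the most abundant gene of that list, and which testis cells carried it was not measured. Cyp17a1 was at 53.7, 159 and 140 FPKM in M3 and 277, 342 and 240 in Con (-1.40, SE 0.398, limma adjusted p = 0.0481). The count rested on single libraries and was 0 without Con replicate 1, 0 without Con replicate 2, 3 without M3 replicate 1, 10 without Con replicate 3 and 12 without M3 replicate 3. Over all 14514 genes the 3210 calls became 0, 1, 61, 772 and 2098 in the same settings, so the background moved with the count. Of the calls over all genes 68.3% were lower in M3, against 13.9% when each library was centred on its median, and 4 of 17 listed calls were then lower.

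Few genes shared the order of levels of Cd5l. Of the 14514 genes tested, 67 (0.462%) had every M3 library below the other 12 and 21 (0.145%) had every M3 library above. Cd5l was among the 67, where its place below M5 and MNC was fixed by its choice and its place below M1 and Con was not. The other 12 libraries include those of M5 and MNC, so the size and rank of its difference partly restate the choice. The difference of Cd5l, -1.98 in mean log2(FPKM + 1), ranked 1 of 67, before Plekha4 at -1.06, Igfbp2 at -0.97, Cd320 at -0.89 and Dnajc25 at -0.81. Gm7876 followed at -0.79, Gng10 at -0.75, Lrg1 at -0.73, Kif1c at -0.67 and Plin1 at -0.65, and the median of the 67 was -0.30. Over all genes tested, whether or not libraries overlapped, Cd5l ranked 4. Plin1 and Acta2, a smooth muscle actin of peritubular cells, were the 2 listed genes among the 67. The count was 30 when each library was centred on its median and 29 after quantile normalization, and it was 125, 638 and 215 without M3 replicates 1, 2 and 3, where fewer libraries had to be low.

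Plekha4, a membrane-lipid-binding protein, was at 0.32, 0.37 and 0.36 FPKM in M3, with 0.53 and 0.60 FPKM in Con replicates 1 and 3 just above. Igfbp2, which binds insulin-like growth factors, was at 3.37, 6.82 and 6.85 FPKM in M3, and its lowest value elsewhere was 7.04. Cd320, the cellular receptor for vitamin B12 bound to transcobalamin, was at 0.88, 0.68 and 0.72 FPKM in M3, and its lowest value elsewhere was 1.04. Dnajc25, a heat shock protein of the DnaJ family, was at 7.33, 7.85 and 4.55 FPKM in M3 and 10.4 to 13.5 elsewhere, and Gng10, a G protein gamma subunit, was at 15.03, 19.1 and 14.9 FPKM in M3 and 22.7 to 37.1 elsewhere. The last 2 genes are neighbours on chromosome 4, with 9582 bases and 0 starts of coding genes between them. Among genes with M3 above all others, Arfgef3 had the largest difference of those with a name, 0.84, at 5.62, 5.43 and 4.25 FPKM in M3 and 1.07 to 4.03 FPKM elsewhere.

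**Figure D3:**
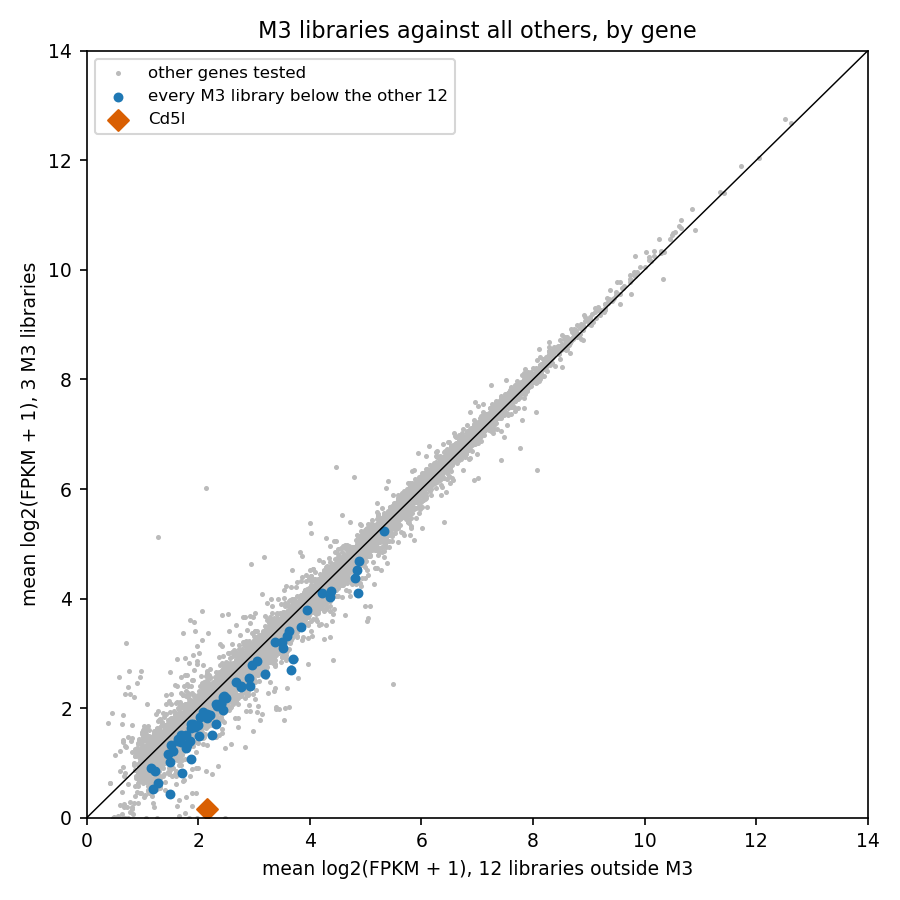
Mean log2(FPKM + 1) of each of 14514 genes over the 3 M3 libraries (vertical) and the 12 other libraries (horizontal), with the line of equality. Blue points are the other genes with every M3 library below the other 12, and the diamond is Cd5l, at a difference of -1.98 where the median of these genes is -0.30. The place of Cd5l partly restates its choice.

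Genes whose levels followed Cd5l were ranked by Pearson r of log2(FPKM + 1) over the 15 libraries, among 14513 genes of which 13612 had a name. The median r was 0.055, 2 genes lay above 0.8 and 3 below -0.8. Since M3 lay apart from the other groups, r over 15 libraries largely reads that gap, and r over the 12 libraries outside M3 is given beside it. All points of a library share its depth and composition, and no test was made.

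The highest r belonged to Gpsm3, a regulator of G protein signalling in leukocytes, with 0.814 (Spearman rho 0.848, r 0.884 outside M3). Gpsm3 was listed at 0 in Con replicate 2 and M3 replicate 2 and had 0.89 and 0.77 FPKM in the other M3 libraries. Tgfbi, a matrix protein secreted by macrophages and other cells, followed with 0.803 (rho 0.668, r 0.533 outside M3). It was at 6.15, 8.39 and 7.49 FPKM in M3 and 8.27 to 15.1 FPKM elsewhere. Rasa4 had an r of 0.763 and Rasal3 0.711, and both encode proteins that switch off Ras. Defb45 had 0.721, Slc39a4, a zinc transporter, 0.719, Gstz1 0.717, Dnajc25 0.715, Atp2a3, a calcium pump, 0.712, and Uvrag 0.711. Dnajc25 had -0.357 outside M3, so that its likeness to Cd5l rested on the M3 libraries. Rasa4 was the gene among these with 0.884 when both M3 and Con replicate 2 were left out. Of these 10 genes, 2 stayed among the 10 highest by Spearman rho and 1 in the 12 libraries outside M3.

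The lowest r belonged to Haspin, a histone H3 kinase of male germ cells and dividing cells, with -0.885 (rho -0.696, r -0.821 outside M3). Haspin was at 17.0, 83.3 and 179 FPKM in M3 and at 79.6 FPKM in Con replicate 2. It was at 2.95 and 10.01 FPKM in the other Con libraries, 2.01 to 2.59 in M1, 2.11 to 2.50 in MNC and 0.76 to 1.71 in M5. The 4 libraries with the highest Haspin were thus the 4 with the lowest Cd5l. P2rx5, an ATP-gated ion channel, had an r of -0.831 and repeated this, with 1.13, 4.47 and 8.48 FPKM in M3, 4.50 FPKM in Con replicate 2 and 0.41 to 0.86 FPKM in the other 11 libraries. Haspin and P2rx5 are adjacent on chromosome 11, at chr11:73135484-73138294 and chr11:73155389-73172687, with 17094 bases and 0 starts of other coding genes between them, so their values may not be independent. Haspin lies within the span of Itgae, an integrin gene, and reads of overlapping genes can be hard to tell apart. Itgae was at 4.32, 4.39 and 5.20 FPKM in M3 and 3.61 FPKM in Con replicate 2, within its range of 2.53 to 7.49 FPKM in the other libraries.

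Within the 4 libraries the order was not inverse, since M3 replicate 3 had the highest Haspin and the highest Cd5l of M3. When M3 and Con replicate 2 were all left out, r over the remaining 11 libraries was -0.164 for Haspin and -0.171 for P2rx5, so the relation rested on these 4 libraries. Nadk2, an NADP-forming kinase of mitochondria, had an r of -0.824 over 15 libraries and -0.611 over the 11. AY358078 and Dus1l had -0.797 each. Nadk2 was at 15.8 to 16.8 FPKM in M3 and 14.5 to 17.2 elsewhere, a narrow range. In the 12 libraries outside M3 alone, where Con replicate 2 stands apart, 147 genes had an r beyond 0.8 in either direction.

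**Figure D4:**
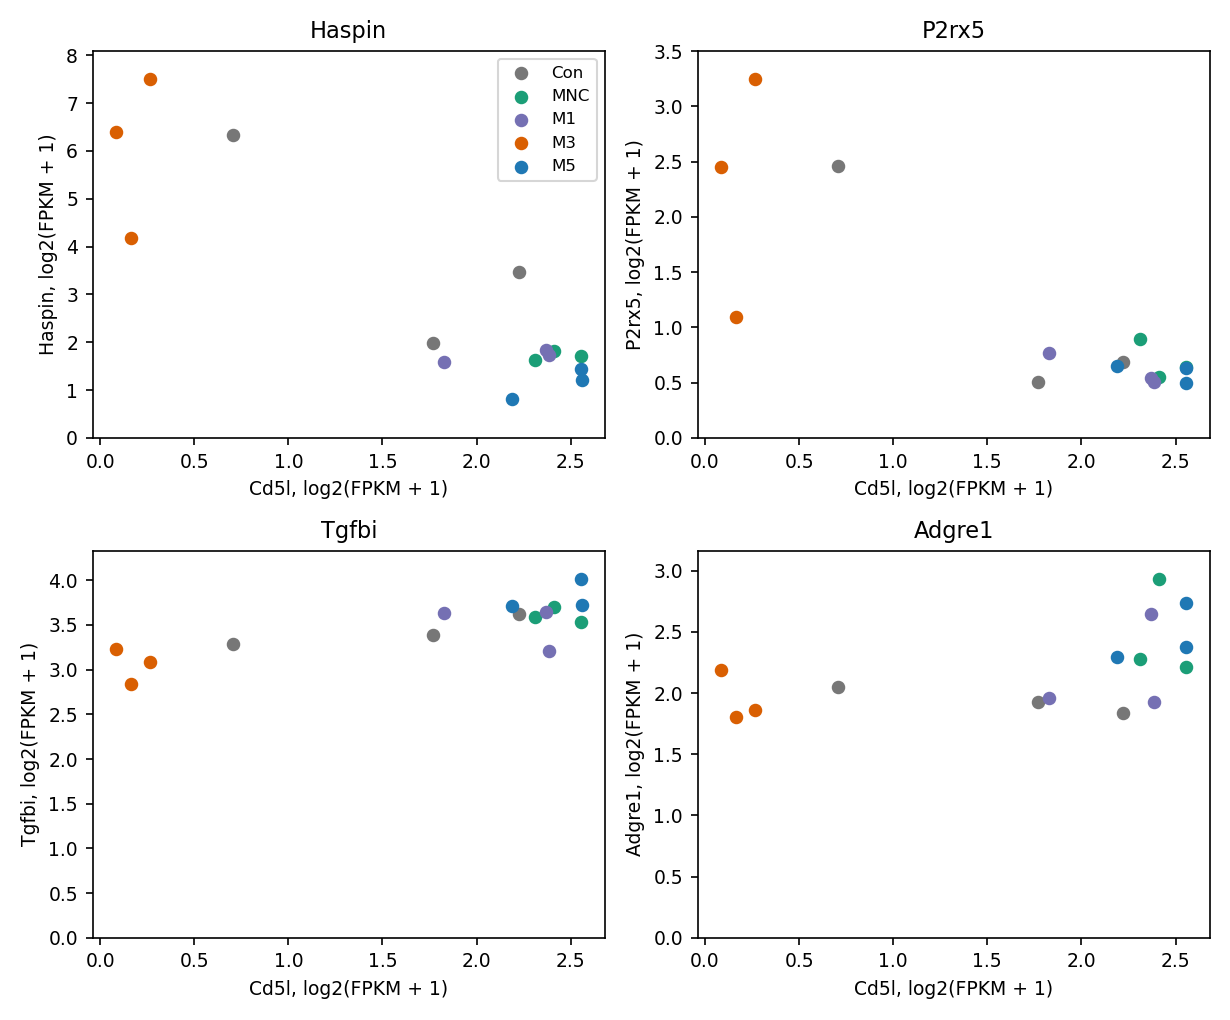
Haspin, P2rx5, Tgfbi and Adgre1 (vertical, log2(FPKM + 1)) against Cd5l (horizontal, log2(FPKM + 1)) in the 15 libraries, coloured by group. The 3 M3 libraries and Con replicate 2 are at the left of each panel with high Haspin and P2rx5, while Adgre1 there is at 2.50 to 3.56 FPKM, overlapping the other Con libraries and M1.

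Of the 3 nearest genes on either side of Cd5l on chromosome 3, only Fcrls, Fcrl1 and Gm10705 were measured. Fcrls, an Fc receptor-like gene of macrophages and microglia that lies 2 genes before Cd5l, was at 0.08, 0.36 and 0.24 FPKM in M3, 0.04, 0.41 and 0.80 in M1, 1.03, 1.06 and 0.57 in MNC, 0.40, 0.29 and 1.83 in M5, and 2.56, 1.78 and 1.40 in Con. Its M3 libraries lay below all MNC and Con libraries and overlapped those of M1 and M5, and it was below the filter. Fcrl1, a B cell receptor-like gene 2 genes after Cd5l, was at 0 to 0.10 FPKM in all libraries, too low to show a pattern. The pseudogene Gm10705, 3 genes before, was at 36.8, 32.6 and 15.6 FPKM in M3 and 12.9 to 34.7 elsewhere. Gm31879, Gm31940 and Gm40084 lie among these neighbours and were not analysed here.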

How the data were processed

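RNA from 15 libraries was analysed, 3 in each of 5 groups, grouped and numbered by title; for M5 replicate 2 the title was followed where its description points to another column. The authors mapped reads to reference genes with SOAPaligner and deposited 1 table of FPKM values with 2 decimals for 23510 gene IDs, which is the unit used here; mm10 (GRCm38) is named in the submitters' processing notes. Read counts were not used, so the depth is unknown. Of the IDs, 21143 (89.9%) matched a RefSeq table of GRCm38.p6 for names, positions and upstream sequence, and transcript structure came from GENCODE.

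Values were taken as log2(FPKM + 1). Genes whose mean over the 15 libraries reached 1 FPKM, 14514 in all, were tested with limma 3.58.1 (eBayes with trend) in R 4.3.3, on the 2 groups compared, two-sided, with Benjamini-Hochberg adjustment over all genes tested and a threshold of 0.05. The study's own test models counts and could not be used. Of 124 listed genes 122 were matched. Genes named are the 4 tested members of each list with the highest mean FPKM, listed genes called, the 10 highest and 5 lowest in r with Cd5l, the 10 with the largest difference below all other libraries, and 3 neighbours on either side; others are marked in the text, and some listed genes that this rule names are not reported here. Cd5l and the lists were chosen with earlier results of these data known. The fits were tested on simulated data. Alternatives were a pseudocount of 0.1, filters at 0.1, 5 and none, median centring, quantile normalization, eBayes without trend, a fit of all 5 groups, the replicate number as a block, and leaving out each replicate; leaving out Con replicate 2 for ranks and correlations, and the macrophage sum without Aif1, were chosen after seeing the data. Python 3.11.15 was also used.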

Additional observations from a re-analysis of the deposited data

How the results depend on the processing

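With a pseudocount of 0.1 the difference of Cd5l was -4.35 against MNC, -4.36 against M5, -4.06 against M1 and -3.12 against Con. Leaving out 1 replicate gave -2.31 to -2.19 against MNC, -2.39 to -2.20 against M5, -2.21 to -1.93 against M1 and -1.83 to -1.07 against Con, and Cd5l in M1 against Con was 0.20 to 0.96 higher and never called. A filter at a mean FPKM of 5 removes Cd5l and gives no value.

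The 24 listed genes called between M3 and Con became 7 with no filter, 14 after quantile normalization and 0 to 19 when 1 replicate was left out, while the 3210 calls over all genes became 1597, 1530 and 0 to 2695. For M3 against M5 leaving out 1 replicate gave 0 to 1 listed genes, the 1 without M3 replicate 3, where 188 genes were called in all, and for M3 against MNC and against M1 it gave 0. The cause was not tested. The sample titles give a replicate number and do not say whether samples of the same number were paired. In no comparison did all 3 same-numbered pairs correlate above 0.1 in their deviations. The values were -0.122 to -0.025 for M3 and MNC, -0.152 to 0.126 for M3 and M5, 0.032 to 0.181 for M3 and M1, 0.008 to 0.089 for M3 and Con and 0.077 to 0.193 for M1 and Con. With 3 pairs per comparison, these values cannot tell whether the samples were paired. With the replicate block, 0 listed genes and 0 genes in all were called in each of the 4 M3 comparisons. The block cannot move the difference of 0.63 for Cd5l in M1 against Con, since the numbers are balanced, and its adjusted p was 0.225.

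The 67 genes with M3 below all others became 25 at a filter of 5, where fewer genes were tested, 30 after centring, 29 after quantile normalization and 71 to 638 when an M3 library or Con replicate 2 was left out, the 4 libraries for which this was run. Of the 10 genes most like Cd5l, 2 stayed by Spearman rho, 1 in the 12 libraries outside M3 and 6 at a pseudocount of 0.1. The 2 decimals of the table and the unknown depth limit levels near 0.1 FPKM, such as those of Cd5l in M3.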
